A study of Homo sapiens with 6 samples.

Results

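Nucleic acid sensing was examined in DMS53 cells through 10 genes, chosen by name for their known roles in this pathway: CGAS, STING1, TLR3, MAVS, MYD88, TRAF3, TRAF6, TBK1, IKBKE and IRF3. They are 10 of the 62696 genes counted in each library. These genes, and the lists of surrounding genes further below, were chosen with earlier results of these data known. DMS53 is an established human cell line of small cell lung cancer (SCLC). The 3 control libraries came from cells transduced with an empty lentiviral vector, pLenti-C-mGFP-P2A-Puro, and the 3 OC2-OE libraries from cells transduced with a vector of the same kind that expresses mGFP-tagged ONECUT2 (OC2, a homeodomain transcription factor) without induction. Both groups therefore received a lentivirus, the GFP and puromycin cassette and puromycin selection, and no library of cells without lentivirus was used here. A single cell line was studied, and the comparison asked how enforced OC2 expression changed the RNA of these genes.

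Cells recognise nucleic acid in the wrong place with dedicated sensors. The enzyme cGAS binds DNA in the cytosol and makes the second messenger cGAMP, which activates the adaptor STING at the endoplasmic reticulum. RIG-I and MDA5 bind RNA in the cytosol and signal through MAVS on mitochondria, and TLR3 binds double-stranded RNA in endosomes and signals through the adaptor TRIF, whereas most other Toll-like receptors use MYD88. These routes meet at the TRAF ubiquitin ligases and the kinases TBK1 and IKK-epsilon (encoded by IKBKE), which phosphorylate IRF3 so that it enters the nucleus and switches on type I interferon and antiviral genes. Loss of STING expression is well known in neuroendocrine SCLC. RNA levels, measured here, do not show whether any of these proteins is active.

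The libraries held between 16533284 and 19099337 counts. Levels of a gene are given as CPM, counts scaled to a TMM-adjusted library total of 1e+06. ONECUT2 rose from 24.6 ± 0.332 to 3940 ± 70.3 CPM (mean ± SD, n = 3), as the labels state, although these reads can include the vector's own transcript. In all, 17307 genes passed the filter on low counts and were tested with edgeR, and genes with an adjusted p under 0.001 were called. The change was broad: 27.8% of the tested genes were called higher in OC2-OE, 28.7% were called lower, and in 73.2% the CPM values of the groups did not overlap. Neuroendocrine markers (7 of 7 with counts) summed to 2010 to 2050 CPM in the control libraries against 3090 to 3130 CPM in OC2-OE, but the higher sum came from SCG2, at 41463 and 124376 counts, and CHGA, at 3729 and 8224. SCG3 was at 10974 and 11032 counts, CHGB at 6309 and 6045, SYP at 17289 and 13466, INSM1 at 16986 and 4732 and NCAM1 at 8503 and 2253. Epithelial markers (4 of 4) summed to 3890 to 3960 and 3120 to 3180 CPM, with KRT8 at 74628 and 55272 counts and KRT18 at 71847 and 46159, but EPCAM at 37742 and 50618 and CDH1 at 18606 and 20362. Of 9 leukocyte markers 8 had a count, with CD3E at 0. They summed to 0.896 to 1.23 CPM in the control libraries against 2.54 to 3.13 CPM in OC2-OE, and LYZ held most of this difference, with 21 and 122 counts. The sum understates CD68, since 81.6% of its exon bases are shared with another gene model on the same strand. The 5 fibroblast markers summed to 21.0 to 23.8 and 28.1 to 32.1 CPM, and the 4 endothelial markers to 12.7 to 15 and 4.17 to 4.73 CPM, with KDR at 548 and 85 counts and CDH5 at 52 and 3, but PECAM1 at 125 and 134 and VWF at 1 and 17.

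Of the 10 sensing pathway genes, 9 were tested and STING1 was too low to pass the filter. IKBKE and TLR3 rose most, TRAF3, MAVS, TBK1 and IRF3 rose by less than 2-fold, CGAS fell, and MYD88 and TRAF6 did not pass the test. The share called higher was 66.7% (6 of 9), beside 27.8% of all tested genes, and the share called lower was 1 of 9, beside 28.7%. The groups did not overlap for 8 of the 9, or 88.9%, beside 73.2% of all tested genes. The median log2 fold change was 0.30 over the 9 genes and 0.0071 over all tested genes. The filter keeps a gene that is high enough in the libraries of 1 group alone. TLR3 passed it through OC2-OE only, so its place among the 9 was not independent of its rise. With at least 10 counts required in every library, 5 of the genes were called higher and 1 lower. With so few genes, chosen with earlier results of these data known, these shares only describe the set.

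**Figure D1:**
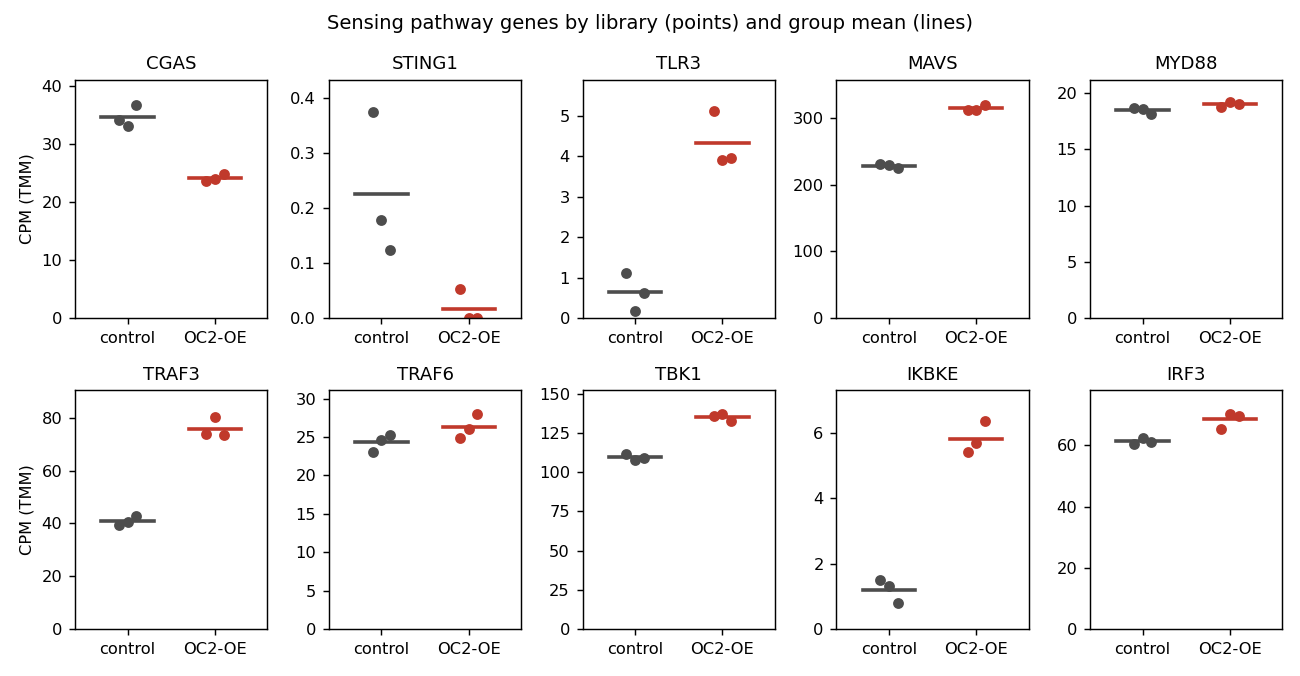
CPM of the 10 genes in each library (points) with the group mean (lines), each panel on its own linear axis from 0. TLR3 and IKBKE in OC2-OE lie far above all control libraries, CGAS lies below them, and STING1 is close to 0 in both groups.

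On the DNA-sensing arm, CGAS transcripts were lower in OC2-OE. The gene (ENSG00000164430.17, chr6:73413515-73452297, minus strand, GRCh38) encodes the DNA sensor itself. Control libraries gave 34.1, 33.2 and 36.7 CPM, and OC2-OE libraries 23.7, 23.9 and 24.9 CPM. All 3 OC2-OE libraries lay below all 3 control libraries. CGAS fell by 30.2%, with a log2 fold change of -0.52 (SE 0.062, 95% confidence interval -0.64 to -0.40, edgeR adjusted p = 4.17e-13). It was the only member called lower.

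STING1, the adaptor that receives the cGAMP signal, was almost without reads in both groups. The gene (ENSG00000184584.14, chr5:139475533-139482935, minus strand) shares no exon base with another gene on its strand, so no reads were lost to an overlapping gene. It had 7, 3 and 2 counts in the control libraries against 1, 0 and 0 counts in OC2-OE. The pooled levels were 0.232 and 0.0183 CPM. The ratio of OC2-OE to control was 0.0787, with an exact 95% counting interval from 0.00184 to 0.532 that covers counting error only. Every OC2-OE library lay below every control library, but on 12 and 1 counts in all. In the fit without a filter on low counts, the edgeR adjusted p of STING1 was 0.0222, which did not pass 0.001. The control cells thus had transcripts of the DNA sensor and hardly any of its adaptor, and of these only CGAS passed the test. In bulk RNA, fewer cells that express a gene and less RNA per cell cannot be told apart.

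The receptor for endosomal double-stranded RNA moved the other way. TLR3 (ENSG00000164342.14, chr4:186068911-186088073, plus strand) had 21, 3 and 10 counts in the control libraries against 98, 68 and 72 counts in OC2-OE. In CPM these were 1.12, 0.179 and 0.615 against 5.11, 3.92 and 3.95. The lowest OC2-OE library was well above the highest control library, and the control libraries differed widely among themselves. The log2 fold change was 2.71 (SE 0.26, 95% confidence interval 2.19 to 3.23, edgeR adjusted p = 7.45e-16), a 6.56-fold difference with an interval from 4.57 to 9.4. This size leans on single control libraries: the log2 fold change was 3.44 without control replicate 1 and 2.28 without control replicate 2. TLR3 stayed a gene of low abundance in OC2-OE. Among the 9 leukocyte markers, LYZ had 21 and 122 counts, CSF1R 15 and 7, ITGAM 5 and 12, PTPRC, which all leukocytes carry, had 0 and 3, and 4 others had at most 3 counts in a group. The level of CD68 (8 and 11 counts) cannot be read, because most of its exon bases are shared. The part of other cells in the TLR3 result was not tested.

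MAVS and MYD88, the other adaptors among the 10 genes, were both expressed well above STING1. MAVS, the mitochondrial adaptor of RIG-I and MDA5 (ENSG00000088888.18, chr20:3846799-3876123, plus strand), was at 231, 230 and 225 CPM in the control libraries against 312, 312 and 320 CPM in OC2-OE. The OC2-OE libraries were all higher, and the libraries of a group were close together. The log2 fold change was 0.46 (SE 0.025, edgeR adjusted p = 2.15e-34), or 1.38-fold. MYD88, the adaptor of most Toll-like receptors and of the interleukin-1 receptor (ENSG00000172936.17, chr3:38138478-38143024, plus strand), was at 18.7, 18.6 and 18.1 CPM in control and 18.8, 19.2 and 19.0 CPM in OC2-OE. These values do not overlap, yet the gap is smaller than the spread within either group. The log2 fold change of 0.04 (95% confidence interval -0.11 to 0.19, edgeR adjusted p = 0.657) did not pass, and the interval leaves room for a change of up to 1.14-fold.

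The TRAF ubiquitin ligases carry the signal from adaptors to kinases. TRAF3 serves the branch to TBK1 and IRF3 and also restrains non-canonical NF-kB signalling, whereas TRAF6 serves the branch to canonical NF-kB. TRAF3 (ENSG00000131323.17, chr14:102777449-102911500, plus strand) was at 39.5, 40.5 and 42.9 CPM in control and 73.8, 80.2 and 73.7 CPM in OC2-OE. No OC2-OE library came near the control range. Its log2 fold change was 0.89 (SE 0.047, 95% confidence interval 0.80 to 0.98, edgeR adjusted p = 2.07e-36), or 1.85-fold. TRAF6 (ENSG00000175104.15, chr11:36483769-36510272, minus strand) was at 23.1, 24.6 and 25.3 CPM in control and 24.9, 26.1 and 28.0 CPM in OC2-OE, so that the groups overlapped. The log2 fold change was 0.12 (95% confidence interval -0.01 to 0.25, edgeR adjusted p = 0.105) and did not pass.

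The balance between these ligases was compared within each library, as the ratio of their levels per exon length. TRAF3 over TRAF6 was 1.17, 1.13 and 1.16 in the control libraries against 2.02, 2.10 and 1.80 in OC2-OE, a 1.71-fold difference of the ratio. The groups were separate, and the two-sided exact permutation test gave p = 0.10 (0.10 after adjustment over the 2 ratios tested), the smallest value that 3 against 3 libraries allow.

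The kinases TBK1 and IKK-epsilon are close relatives that phosphorylate IRF3. TBK1 is made in most cells, while IKBKE is known to be inducible by NF-kB. TBK1 (ENSG00000183735.11, chr12:64452090-64502114, plus strand) rose from 110 ± 2.32 to 135 ± 2.16 CPM (SD, n = 3), with 2097, 1805 and 1768 counts in control and 2607, 2367 and 2416 counts in OC2-OE. Its log2 fold change was 0.30 (SE 0.033, 95% confidence interval 0.23 to 0.37, edgeR adjusted p = 2.17e-14), or 1.23-fold. IKBKE (ENSG00000263528.8, chr1:206470476-206496889, plus strand) had 28, 22 and 13 counts in control and 104, 99 and 116 counts in OC2-OE. In CPM these were 1.50, 1.31 and 0.799 against 5.43, 5.71 and 6.37, and the groups were far apart. Its log2 fold change was 2.25 (SE 0.20, 95% confidence interval 1.87 to 2.64, edgeR adjusted p = 3.47e-20), a 4.77-fold difference with an interval from 3.64 to 6.24.

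IKBKE was still the minor kinase transcript in OC2-OE. Per exon length, IKBKE over TBK1 was 0.0518, 0.0473 and 0.0285 in the control libraries against 0.155, 0.162 and 0.186 in OC2-OE. The ratio was 4.06-fold higher in OC2-OE, with groups that did not overlap and the smallest p of the two-sided exact permutation test, 0.10. The ratio itself depends on the length used: with the longest coding transcript of each gene in GENCODE release 29, chosen after seeing the data, it was 0.0111 ± 0.00322 in control and 0.0437 ± 0.00429 in OC2-OE (SD, n = 3). For CGAS over STING1 no ratio could be tested, since STING1 was at 0 in some libraries.

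IRF3, the transcription factor at the end of the route (ENSG00000126456.16, chr19:49659569-49665875, minus strand), is made constantly and is controlled mainly by phosphorylation. It was at 60.6, 62.5 and 61.0 CPM in the control libraries against 65.5, 70.4 and 69.6 CPM in OC2-OE. The OC2-OE libraries were all higher, by a small margin. The log2 fold change was 0.16 (SE 0.043, 95% confidence interval 0.07 to 0.24, edgeR adjusted p = 0.000709), or 1.12-fold. This call did not hold in the DESeq2 Wald test (adjusted p = 0.00664) or with any 1 of 5 libraries left out (edgeR adjusted p between 0.00151 and 0.00731), the exception being OC2-OE replicate 1. IRF3 overlaps BCL2L12 on the opposite strand, which had 875 and 688 counts, and the counting used the strand.

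**Figure D2:**
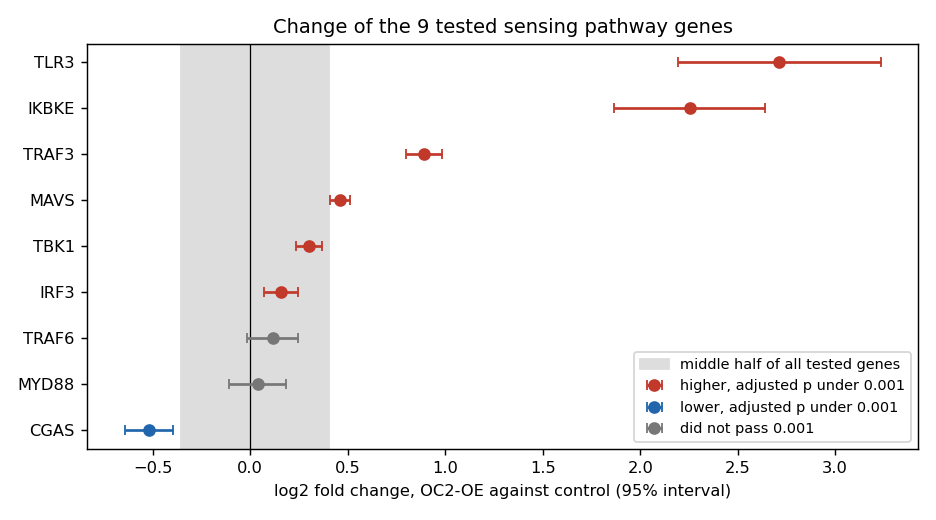
Log2 fold change of OC2-OE against control for the 9 tested genes, with 95% confidence intervals from edgeR. The shaded band runs from the lower to the upper quartile of all tested genes, -0.36 to 0.40. TLR3, IKBKE, TRAF3 and MAVS lie to its right and CGAS to its left.

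Set against the whole table, the sizes were uneven. The absolute change of TLR3 was larger than that of 97.6% of the tested genes, and that of IKBKE larger than 96.0%. TRAF3 followed at 78.1%, CGAS at 61.3% and MAVS at 57.1%. The changes of TBK1 at 41.5% and IRF3 at 23.4% passed the test but were smaller than that of the median gene.

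Levels of different genes were compared as TPM, in which each gene's counts are divided by its summed exon length before every library is scaled to 1e+06. In the control libraries MAVS was highest at 79.3 ± 0.862 TPM, followed by IRF3 at 66.0 ± 0.827, CGAS at 33.9 ± 1.92 and TBK1 at 30.4 ± 0.677. MYD88 at 17.7 ± 0.243, TRAF3 at 14.1 ± 0.646 and TRAF6 at 12.2 ± 0.604 TPM formed the middle, and IKBKE at 1.29 ± 0.387, TLR3 at 0.348 ± 0.257 and STING1 at 0.192 ± 0.112 TPM the bottom (SD, n = 3). Neighbours in this order did not overlap, except TLR3 and STING1.

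In OC2-OE the order was MAVS at 112 ± 1.51 TPM, IRF3 at 75.7 ± 2.87, TBK1 at 38.5 ± 0.628, TRAF3 at 26.8 ± 1.33 and CGAS at 24.3 ± 0.655. MYD88 at 18.7 ± 0.164, TRAF6 at 13.6 ± 0.792, IKBKE at 6.46 ± 0.531, TLR3 at 2.42 ± 0.38 and STING1 at 0.0152 ± 0.0263 TPM followed. No neighbours overlapped. CGAS thus moved from rank 3 to rank 5 among the 10 genes, and TRAF3 from rank 6 to rank 4. The order depends on the length used: the summed exons of TBK1 span 14716 bases, against 3256 for its longest coding transcript in GENCODE release 29.

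**Figure D3:**
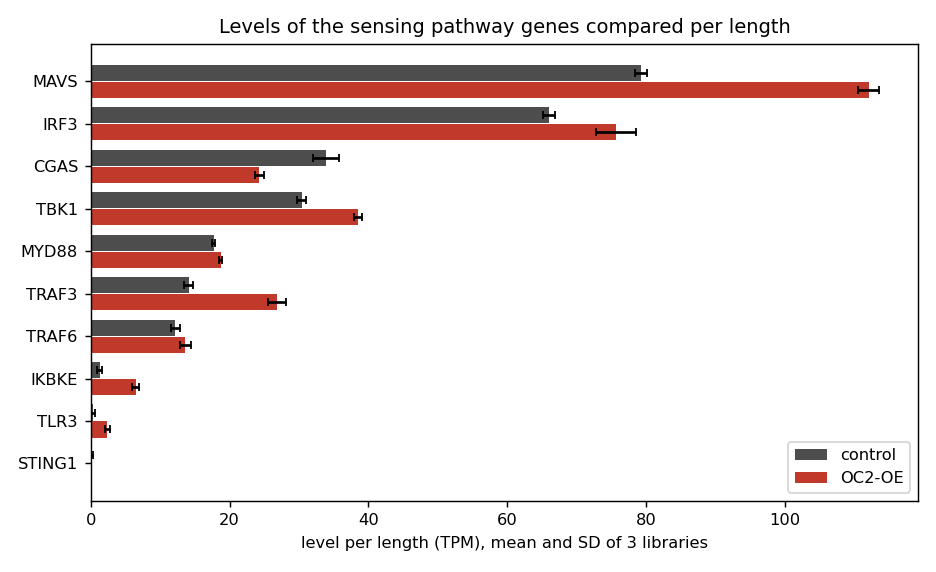
Levels per exon length (TPM) of the 10 genes in control and OC2-OE, as the mean of 3 libraries with SD, on a linear axis from 0. MAVS and IRF3 lead in both groups, and STING1 is at 0.192 TPM in control and 0.0152 TPM in OC2-OE.

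Promoters are shown for TLR3 and IKBKE, which rose most, for TRAF3, which followed, and for MYD88, which did not pass the test. The sequences are from RefSeq on GRCh38.p14, whose table held 7 of the 10 genes. STING1, CGAS and IRF3 were not matched. The windows run from 250 bases before to 50 bases after the RefSeq start of each gene, which can differ from the gene start given above, and were searched on both strands. The motifs were the core of the interferon-stimulated response element (ISRE, GAAANNGAA), the NF-kB consensus, and the ONECUT cores ATTGAT and ATCGAT. The stretches below run from 100 bases before the start to its first 6 bases, 5′ to 3′ in the direction of the gene, with a motif match in capitals.

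TLR3: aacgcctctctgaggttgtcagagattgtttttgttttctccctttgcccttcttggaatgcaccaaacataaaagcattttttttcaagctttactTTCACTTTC

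IKBKE: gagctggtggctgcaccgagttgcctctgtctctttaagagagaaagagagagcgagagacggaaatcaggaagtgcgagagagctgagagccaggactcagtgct

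TRAF3: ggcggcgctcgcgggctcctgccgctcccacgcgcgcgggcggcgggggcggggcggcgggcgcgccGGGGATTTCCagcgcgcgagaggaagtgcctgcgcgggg

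MYD88: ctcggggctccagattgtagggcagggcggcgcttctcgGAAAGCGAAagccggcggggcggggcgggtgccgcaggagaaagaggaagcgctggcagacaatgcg

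These stretches lie on the plus strand at chr4:186069056-186069161 (TLR3), chr1:206470376-206470481 (IKBKE), chr14:102777349-102777454 (TRAF3) and chr3:38138561-38138666 (MYD88). The ISRE core is found in 8.11% of the 35116 promoters of the table and in TLR3 and MYD88 among the 7 matched genes. In TLR3 it lies on the opposite strand, so that its capitals read as the reverse complement, and it spans the start site. In MYD88 it begins 61 bases before the start. The NF-kB consensus is found in 11.3% of promoters and in TRAF3, 33 bases before the start. The ONECUT cores are found in 6.26% (ATTGAT) and 0.763% (ATCGAT) of promoters and were not present in the windows of the 7 genes. TLR3 and IKBKE, which rose most, have 5 CpG each in 300 bases and a GC content of 40.33% and 55.0%, below the median of all promoters (14 CpG and 58.67%). The other 5 windows have 25 to 61 CpG. A motif match describes the letters in these windows and does not show binding.

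The shares on this list and on those below only describe lists that were chosen with earlier results of these data known. Of 20 tested regulators of cytosolic DNA sensing and STING, 6 were called higher and 5 lower, close to the 27.8% and 28.7% of all tested genes, and the median log2 fold change was -0.01. The count called lower was 3 without OC2-OE replicate 3, with library size only and in the DESeq2 Wald test. DNASE2, the lysosomal nuclease that clears DNA, rose from 103 ± 2.06 to 162 ± 1.82 CPM, and NLRX1, a mitochondrial protein known to dampen STING and MAVS signalling, from 21.3 ± 1.20 to 31.3 ± 0.624 CPM. BANF1, a DNA-binding protein that competes with cGAS on nuclear DNA, fell from 149 ± 3.98 to 96.6 ± 2.20 CPM. The DNA sensor IFI16 had 78 and 43 counts, with a log2 fold change of -0.94 that did not pass (edgeR adjusted p = 0.00467). TREX1, the main cytosolic DNA exonuclease, is listed at 0 counts, but 100% of its exon bases are shared with ATRIP on the same strand, so its level cannot be read from these counts.

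Of 18 tested RNA-sensing genes, 13 were called higher and 4 lower, beside 27.8% and 28.7% of all tested genes, with a median log2 fold change of 0.44 beside 0.0071. OASL, an antiviral protein that enhances RIG-I signalling, had 26 and 232 counts (log2 fold change 3.06, SE 0.26, edgeR adjusted p = 1.64e-20). DHX58, which encodes the regulatory helicase LGP2, rose from 0.813 ± 0.0206 to 5.74 ± 0.452 CPM. RIGI, the sensor of RNA with a 5′ triphosphate, had 28 and 170 counts (log2 fold change 2.50, SE 0.29, edgeR adjusted p = 1.21e-13), although 43.2% of its exon bases are shared with another gene model on the same strand, so that reads from those bases were not counted for it. IFIH1, which encodes MDA5 for long double-stranded RNA, was far more abundant and rose from 50.4 ± 1.19 to 73.8 ± 0.379 CPM, a log2 fold change of 0.55.

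Among the other Toll-like receptors and their adaptors, 10 of 17 tested genes were called higher and 5 lower (27.8% and 28.7% over all tested genes), and the median log2 fold change was 0.50. TICAM1, which encodes the TLR3 adaptor TRIF, rose from 33.7 ± 0.567 to 62.1 ± 1.82 CPM (log2 fold change 0.88, SE 0.05, edgeR adjusted p = 2.03e-33), beside the rise of TLR3. TLR4, the receptor of bacterial lipopolysaccharide, had 43 and 200 counts, its co-receptor LY96 20 and 57, and the flagellin receptor TLR5 49 and 126. UNC93B1, the chaperone that brings endosomal receptors including TLR3 to their compartment, fell from 59.2 ± 2.53 to 52.4 ± 1.93 CPM. Pseudogenes resemble UNC93B1, and its count is uncertain for that reason. The calls of LY96 and UNC93B1 were each lost in 8 alternative settings, and that of TLR5 in 2.

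Of 23 other TRAF proteins and members of the kinase complexes, 9 were called higher and 5 lower, not far from the 27.8% and 28.7% of all tested genes, and the median log2 fold change was 0.06. BIRC3, the ubiquitin ligase cIAP2, rose most, from 16.1 ± 0.67 to 158 ± 3.07 CPM (log2 fold change 3.30, SE 0.048, edgeR adjusted p = 1.34e-93). OPTN, a ubiquitin-binding protein that docks TBK1, rose from 93.6 ± 1.57 to 218 ± 5.76 CPM, and TRADD, a death-domain adaptor, from 9.33 ± 0.371 to 18.1 ± 0.487 CPM. TANK, a scaffold for both TBK1 and IKK-epsilon, was at 67.7 ± 2.10 and 70.8 ± 2.31 CPM and did not pass (edgeR adjusted p = 0.171). IKBKG, the NEMO subunit of the IKK complex, was at 11.2 ± 1.30 and 10.3 ± 0.169 CPM (edgeR adjusted p = 0.265), and a near-identical pseudogene makes its count uncertain.

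Of 13 tested brakes of the pathway, 6 were called higher and 3 lower, beside 27.8% and 28.7% of all tested genes, with a median log2 fold change of 0.25. TNFAIP3, which encodes the ubiquitin-editing enzyme A20 and is a classic NF-kB target, rose from 12.3 ± 0.885 to 83.6 ± 0.811 CPM (log2 fold change 2.76, SE 0.059, edgeR adjusted p = 1.62e-75). RNF125, a ubiquitin ligase that marks RIG-I and MAVS for degradation, rose from 2.55 ± 0.484 to 7.26 ± 0.788 CPM. USP18, which removes ISG15 from proteins and blocks the type I interferon receptor, fell from 46.3 ± 2.29 to 20.5 ± 1.07 CPM (log2 fold change -1.18, SE 0.06, edgeR adjusted p = 1.8e-37). USP18 is itself known as an interferon-induced gene.

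Beside IRF3, 6 interferon regulatory factors were tested. IRF5, IRF1 and IRF7 rose and the other 3 did not pass, beside 27.8% of all tested genes called higher. IRF1 rose from 30.4 ± 1.34 to 69.0 ± 3.30 CPM, IRF7, the amplifier of type I interferon, from 10.1 ± 1.17 to 21.1 ± 1.28 CPM, and IRF5 from 7.83 ± 1.27 to 19.0 ± 1.55 CPM. Their log2 fold changes of 1.19, 1.08 and 1.28 stand beside 0.16 for IRF3.

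Transcripts of interferons themselves were scarce. IFNB1, the type I interferon that IRF3 induces directly, had 1 count in all control libraries together and 1 in all OC2-OE libraries together. IFNA1, IFNK, IFNW1, IFNL2 and IFNL3 had 0 counts in both groups, IFNL1 had 1 and 0, IFNE 14 and 12, and IFNG 32 and 4. A poly(A) library at this depth, taken at a single time, does not show whether an interferon was made earlier. Of the 11 receptor and JAK-STAT genes tested, 8 were called higher and 1 lower, beside 27.8% and 28.7% of all tested genes. The count called lower over the 20 genes of this list, interferons included, was 2 in some settings. These left out control replicate 3, OC2-OE replicate 1 or OC2-OE replicate 2, or used no filter on low counts. Each tested more genes than the main fit, so the added gene can be an interferon outside the 11. IFNAR1 fell from 82.8 ± 0.52 to 72.0 ± 0.993 CPM, whereas IFNAR2, the other chain of the type I receptor, rose from 10.7 ± 0.746 to 17.3 ± 0.54 CPM. For IFNAR2, 14.7% of exon bases are shared with the IFNAR2-IL10RB gene model on its strand, and reads there were not counted. IFNGR1 rose from 20.8 ± 1.12 to 35.7 ± 1.34 CPM and STAT2 from 52.7 ± 3.19 to 136 ± 3.33 CPM.

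Of 12 tested genes that IRF3 or the interferon-activated complex ISGF3 are known to switch on, 10 were called higher, beside 27.8% of all tested genes, and 2 did not pass, with a median log2 fold change of 1.64. CXCL11, a T cell chemokine, had 7 and 672 counts (log2 fold change 6.43, SE 0.25, edgeR adjusted p = 9.71e-49), and its neighbour CXCL10 67 and 2076 (log2 fold change 4.86, SE 0.12). IFI44 rose from 0.781 ± 0.14 to 27.5 ± 1.83 CPM and ISG15, a ubiquitin-like modifier, from 35.4 ± 4.74 to 78.2 ± 4.15 CPM. The rises were unequal, and RSAD2 (181 and 208 counts) and MX2 (138 and 207 counts) did not pass. CCL5, IFI44L and IFI27 had too few counts to be tested.

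**Figure D4:**
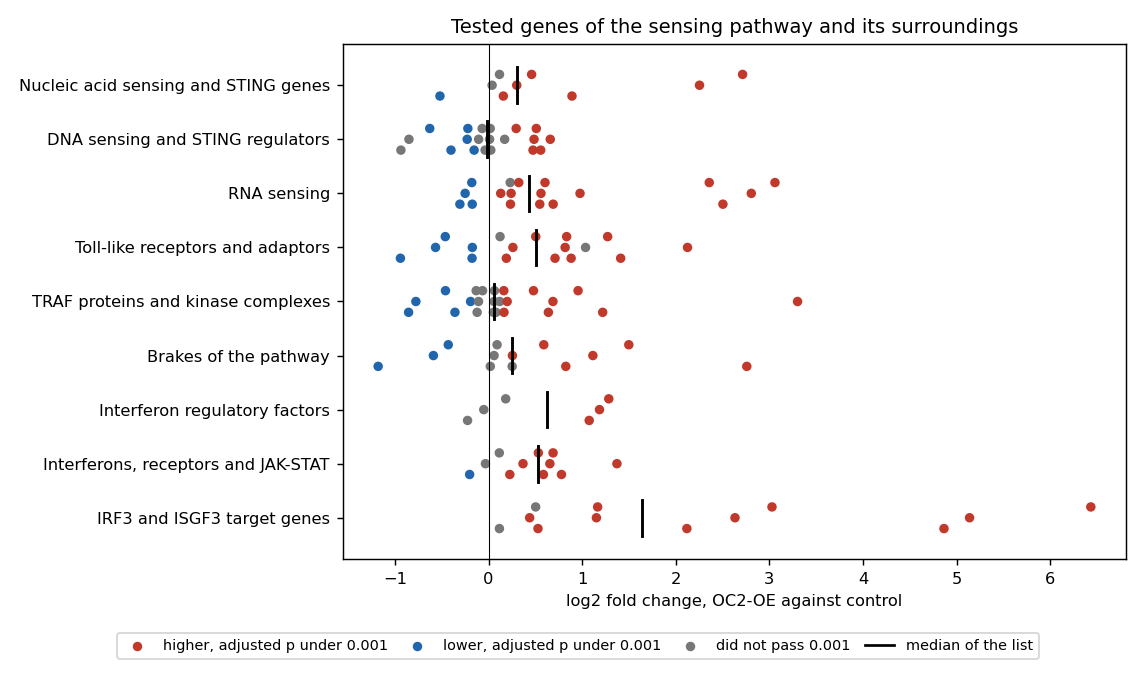
Log2 fold change of each tested gene on the sensing gene set and on 8 lists of the surrounding pathway, coloured by the edgeR call, with the list's median as a vertical line. Target genes of IRF3 and ISGF3 have the highest median at 1.64, and regulators of DNA sensing lie around 0 with a median of -0.01.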

How the data were processed

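RNA-Seq was performed on 3 control and 3 OC2-OE libraries of DMS53 cells, described by the study as independent experiments. P-values measure the spread between these samples, which was small, with a biological coefficient of variation of 2.2%. Whether the libraries of a group came from separate transductions and selections is not stated. P-values do not cover variation between separately selected cell populations. If each group was 1 such population, a difference between the populations and an effect of OC2 cannot be told apart. The authors sequenced stranded poly(A) libraries on a NextSeq2000, checked reads with FastQC 0.11.8, aligned them with STAR 2.7.9a to GRCh38 and counted read pairs with featureCounts 1.6.0 on GENCODE release 42 (tools and builds from the submitters' processing notes and per the file headers). The deposited values are raw counts. Reads shared by overlapping genes on 1 strand are not counted with these options. Beside the genes marked above, RNF125 shares 8.89% of its exon bases in this way, TLR4 5.11% and TBK1 0.489%.

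Counts were scaled by TMM (factors 0.980 to 1.018), filtered with filterByExpr and tested with edgeR 4.0.16 (quasi-likelihood, robust) in R 4.3.3, with Benjamini-Hochberg adjustment over 17307 genes. The threshold of 0.001 is the study's. SE is the absolute log2 fold change over the square root of F. Libraries of a group differed by 1.316 to 2.122 times the sampling variance, so none was a copy of another. The 10 genes and the lists were chosen with earlier results of these data known. Named genes are the 10 genes, up to 3 genes per list with the largest change among those called with a mean of at least 10 counts in the higher group, and genes fixed by role, of which 1 is not reported here. IFNA1, IFNE, IFNG, IFNK, IFNL1 to IFNL3, IFNW1, RSAD2, MX2 and the markers were added after their values were seen. Alternatives used DESeq2 1.42.0, limma 3.58.1 (voom), other scalings, filters and thresholds, a replicate block and each library left out. The script was tested on simulated data.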

Additional observations from a re-analysis of the deposited data

How the results depend on the processing

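Over 16 alternative settings, 137 of 143 fits of the tested sensing genes kept their direction and side of the threshold, and the 6 others were IRF3. Of 272 list counts, 20 moved by more than 1.5 times, most of them with the minimum fold change below. CGAS ranged from -0.55 to -0.47, IKBKE from 2.04 to 2.45, TRAF3 from 0.85 to 0.94 and MAVS from 0.45 to 0.51 on the log2 scale. With a minimum absolute log2 fold change of 1, 2999 genes were called instead of 9776, 1435 of them higher instead of 4810, and among the sensing genes 2 were higher (TLR3 and IKBKE) and 0 lower. TLR3, and among the other named genes CXCL11, OASL, RIGI, TLR4, TLR5 and LY96, could not be tested where every library needed at least 10 counts. These genes passed the main filter through their OC2-OE libraries only. With the stricter filter, 11 RNA-sensing genes were called higher instead of 13. The count was 8 instead of 10 for the Toll-like receptor list and 9 instead of 10 for the IRF3 and ISGF3 targets. Leaving out each library in turn gave 8944 to 9340 called genes. The DESeq2 Wald test gave 8385, and an adjusted p under 0.05 gave 12354. Library size alone moved the median of all genes to 0.058, and MYD88 with it to 0.089. Replicate numbers did not pair the samples: correlations of same-numbered deviations over 11883 genes were -0.0086, 0.0254 and 0.0241. With the replicate number as a replicate block, 9642 genes were called, with 6 sensing genes higher and 1 lower as in the fit without it. Depth limits STING1, TLR3, IKBKE and RIGI, which have at most 28 counts in any control library. The same holds for CXCL11, OASL, DHX58, IFI44, LY96, TLR4 and TLR5 among the other named genes that were tested.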

Other observations

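Levels per length were also computed with the longest coding transcript of GENCODE release 29, an alternative chosen after seeing the data. IRF3 and TBK1 then led with 95.7 ± 1.09 and 91.4 ± 2.18 TPM in control and 111 ± 4.22 and 117 ± 1.88 TPM in OC2-OE, above MAVS at 53.1 ± 0.674 and 75.9 ± 1.05 TPM (SD, n = 3). CGAS was at 29.6 ± 1.65 and 21.5 ± 0.587 TPM and TRAF3 at 14.4 ± 0.642 and 27.9 ± 1.38 TPM, so that TRAF3 passed CGAS on this scale too. In control, TRAF6 at 14.3 ± 0.681 TPM was level with TRAF3 on this scale. IKBKE, TLR3 and STING1 were again lowest in both groups.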
